A study of Bos taurus with 90 samples.

Results

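The genes described here are the 200 most variable genes of bovine cumulus cells (CCs) among follicles of the same size class, chosen by their spread over 26 CC libraries. Counts were divided by the library total and scaled to one common total (CPM), and genes with a mean CC level of at least 20 CPM were ranked by the variance of log2(CPM + 1) around the mean of each size class, pooled over the 3 classes. Of 27270 genes in the count table, 6135 passed the level floor, and the first 200 of these are called members. A member's rank is its place in this order, with 1 for the highest variance. Follicles are named by their CC library, where CS, CM and CL stand for CCs of small, medium and large follicles.

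Each CC library was a small pool of cells from around the oocyte of 1 antral follicle of a Bos taurus cow. The mural granulosa cells (MGCs) and the single oocyte of the same follicle were sequenced separately. The 26 follicles comprised 8 small (3.1 to 3.8 mm), 8 medium (6.2 to 7.0 mm) and 10 large (9.6 to 11.6 mm) follicles, with no treatment in any class. The ovaries came from a slaughterhouse, the denuded oocyte and its CCs were amplified by SMART-seq2, and MGCs were sequenced as ordinary bulk RNA. Library totals ran from 8760201 to 40180192 counts in CCs, from 26739954 to 39266980 in MGCs and from 8442938 to 53173320 in oocytes, where a count of 0 allows a level of up to 0.342, 0.112 and 0.355 CPM in the shallowest library of each (3 counts, counting error only). Several follicles of a class can come from 1 cow, which the labels do not give, so the p-values below measure the spread between follicles and may be too small.

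CCs are the granulosa cells that enclose the oocyte and are joined to it by gap junctions, and MGCs line the wall of the follicle. Both derive from the same granulosa lineage and exchange hormones, metabolites and paracrine signals with the oocyte as the antrum grows. Follicles of one diameter can be growing, dominant or regressing, so cells of one size class need not be in the same state. The count table gives Ensembl gene identifiers that the reference used here does not pair with symbols. The members are therefore named by rank, 4 identifiers are given, and neither the roles of the genes nor markers of CCs, MGCs, theca or blood cells were checked.

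Among the CC libraries, those of small follicles CS50501 and CS71701 stood apart from the other 24. The library of follicle CS50501 had counts for 11872 genes and that of CS71701 for 14262, against 14076 to 18588 in the other 24, a range that includes CS71701. Their 100 most abundant genes took 53.5% and 44.0% of the counts, against 28.4% to 39.2%. Their correlation with the mean of the other CC libraries was 0.811 and 0.878, against 0.916 to 0.983. These libraries held 32.5% of the members' within-stage sum of squares and also 32.5% of that of all 6135 genes above the floor, so results are given below with and without them.

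The members' variance ran from 2.16 to 8.87 on the squared log2 scale with a median of 2.56, against a median of 0.549 for all genes above the floor. The last member had a variance of 2.158 and the first gene left out, ranked 201, had 2.155. Their median mean level was 55.4 CPM in CCs, close to 53.9 CPM over all genes above the floor. In 134 members (67%) at least 1 CC library lay under 1 CPM, against 592 (9.65%) of all genes above the floor. These values describe the choice and carry no test.

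The low values of the members gathered in few follicles. The CC library of CS50501 was the lowest of the small class at 147 members and that of CS71701 at 24. In the medium class CM62201 was lowest at 91 members and CM72403 at 49. In the large class CL70703 was lowest at 62, CL50505 at 43 and CL62803 at 25. The median of the members, as a difference from the stage mean, was -3.50 in CS50501 and -2.59 in CS71701 and, as the lowest of the medium and large classes, -1.31 in CM62201 and -0.77 in CL70703. The median of all genes above the floor was also below the stage mean there, at -1.12, -0.60, -0.13 and -0.09 in the same order. In CS50501 112 members and in CS71701 53 members lay under 1 CPM, against at most 11 in any other CC library.

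The follicles high for the members were spread more evenly. Small follicle CS62005 was highest at 56 members, CS62003 at 40 and CS70501 at 37. Medium follicles CM71805 and CM70502 were highest at 57 and 41 members, and large follicles CL71801 and CL70504 at 29 each. The median of the members rose and fell over the libraries with the median of all genes above the floor (r = 0.95 over 26 libraries that set both values). It followed the number of genes detected with r = 0.54 over all 26 libraries and 0.14 without CS50501 and CS71701, and followed the library total with r = -0.02. The part of library quality in the spread was not tested. In these bulk libraries fewer cells of a type and less RNA per cell cannot be told apart.

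**Figure D1:**
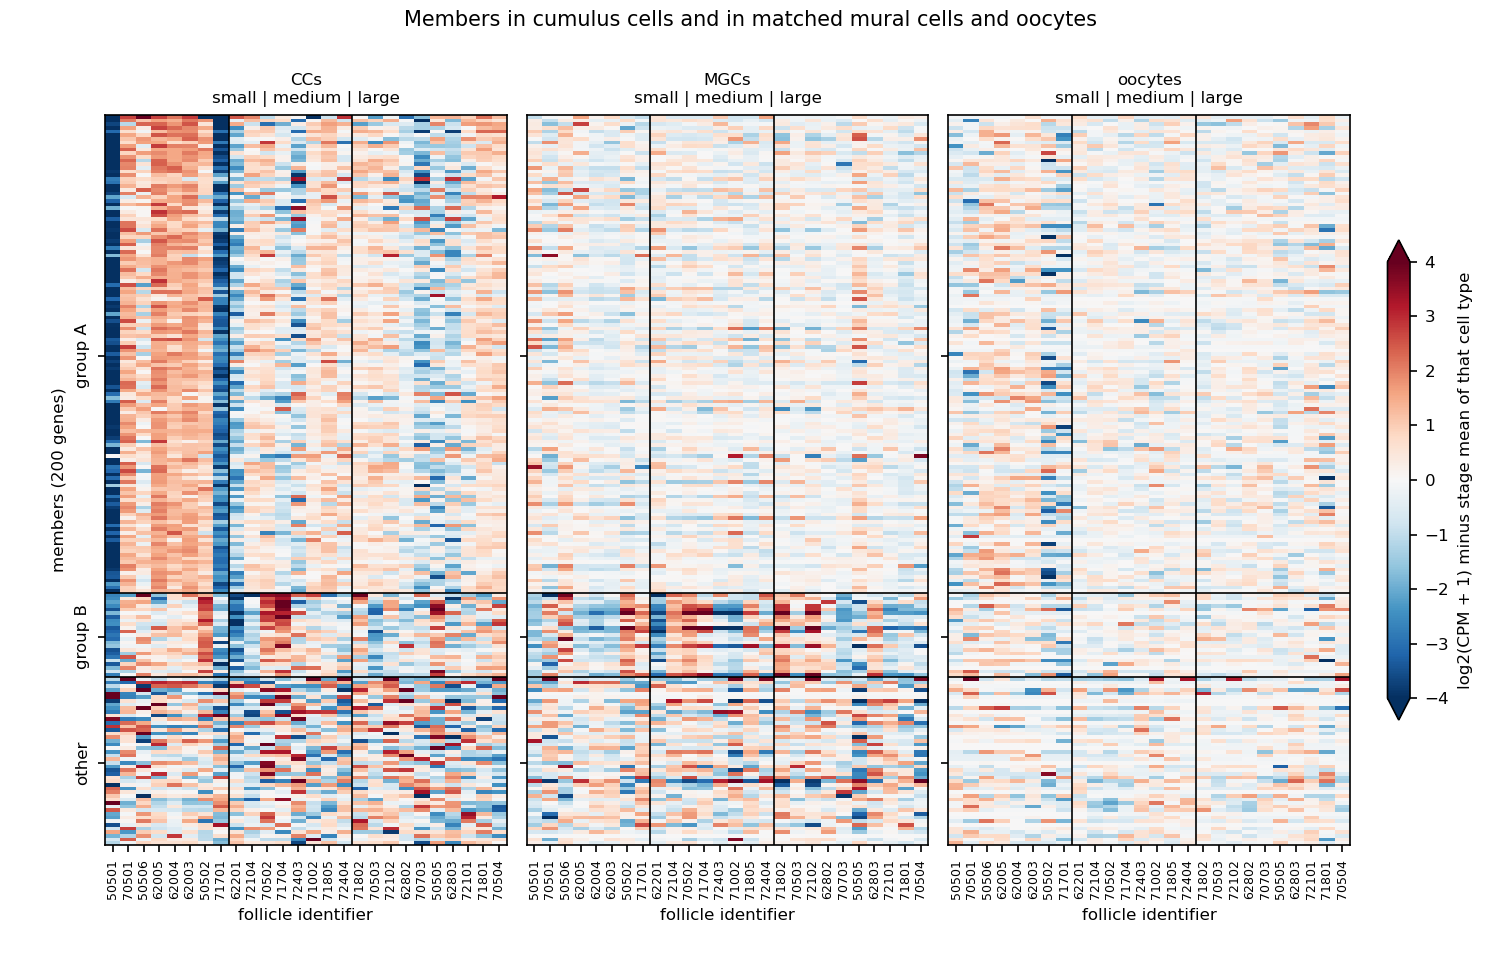
Each row is 1 of the 200 members and each column 1 of 26 follicles, in the order of size class, for CCs, MGCs and oocytes, marked by the digits of the follicle name. Color gives log2(CPM + 1) minus the mean of that size class in that cell type, cut at -4 and 4. Members and groups were chosen on the CC values. The 131 members of group A are dark blue in the CCs of follicles CS50501 and CS71701 and pale in the MGCs and oocytes of the same follicles, whereas the 23 members of group B and the 46 other members are strongly colored in MGCs too.

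Clustering of the members by their CC pattern (average linkage on 1 - r, with an average r of 0.4 as the limit) gave a large group of 131 members, called group A, and a small one of 23, called group B. The other 46 members fell into sets of fewer than 10. The median r between members was 0.75 within group A and 0.56 within group B. Both groups were formed from the values that chose the members, so they are descriptions.

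Group A held the genes that were lowest in the CCs of CS50501 and CS71701. The median level of its members was 0.381 CPM in the CCs of CS50501 and 2.25 CPM in those of CS71701, and 35.1 to 93.7 CPM in the other 6 small follicles. In 128 of its 131 members both libraries lay below all 6 others of the class. That order was also common outside the group, since it held for 54.0% of all genes above the floor. In the medium class the group was lowest in CM62201, at a median of 19.9 CPM, and highest in CM71805, at 78.6 CPM. In the large class its median ran from 36.1 CPM in CL70703 to 98.0 CPM in CL71801.

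In the other cells of the same follicles group A lay nearer to the stage mean. The CC values chose and grouped these members, so a wider spread in CCs is in part given by the choice. As a mean difference from the stage mean, group A was at -4.06 in the CCs of CS50501, at 0.40 in its MGCs and at -0.30 in its oocyte. In CS71701 the 3 values were -3.05, -0.22 and -0.47. These oocytes were among the lowest for group A, with that of CS50502 at -0.62 below both. Over all follicles the group mean stayed between -0.33 and 0.53 in MGCs and between -0.62 and 0.62 in oocytes. The group mean of CCs correlated with that of matched MGCs at r = -0.32 and with that of oocytes at 0.45 over 26 follicles, and at -0.44 and 0.12 over the 24 without the 2 low libraries.

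The members closest to the mean of group A, by r, were those ranked 20, 97, 26 and 144. The member ranked 20 ran from 0.032 CPM in the CCs of CS50501 to 281 CPM in small follicles, from 28.3 to 422 CPM in medium follicles and up to 577 CPM in large ones, with class medians of 128, 199 and 227 CPM. In MGCs it ran from 24.0 to 271 CPM over all classes, and in oocytes it did not pass 6.59 CPM. The member ranked 26 had 0 counts in the CCs of CS50501 and class medians of 125, 288 and 299 CPM, while its lowest MGC level was 113 CPM. The variance of both rested largely on the 2 low libraries and fell from 4.11 to 1.11 at rank 20 and from 3.72 to 0.62 at rank 26 without them.

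**Figure D2:**
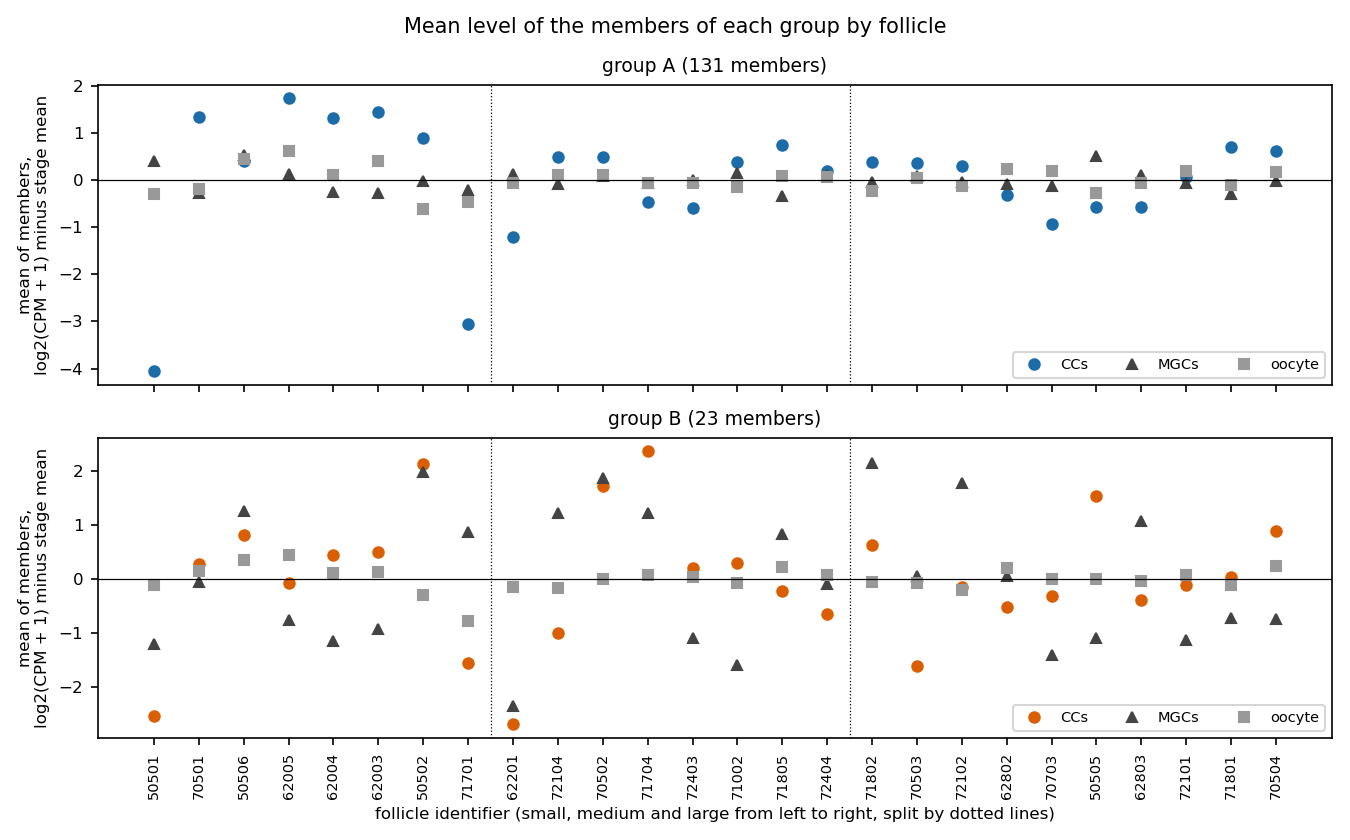
Each point is the mean over the members of group A (131 genes) or group B (23 genes) in 1 library, as log2(CPM + 1) minus the mean of the size class. Circles are CCs, triangles MGCs and squares oocytes of the same follicle. Members and groups were chosen on the CC values. Group A lies at -4.06 and -3.05 in the CCs of CS50501 and CS71701 and near 0 elsewhere in those follicles, and group B spans -2.70 to 2.37 in CCs and -2.36 to 2.15 in MGCs.

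Over the 200 members, the median share of the variance left without CS50501 and CS71701 was 57.7%. Under 30% was left at 40 members and over 90% at 48. The median variance of group A fell from 2.44 to 1.06, while that of group B went from 2.46 to 2.35 and that of the other members from 3.08 to 2.83. Choosing again over 24 libraries kept 97 of the 200 members.

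**Figure D3:**
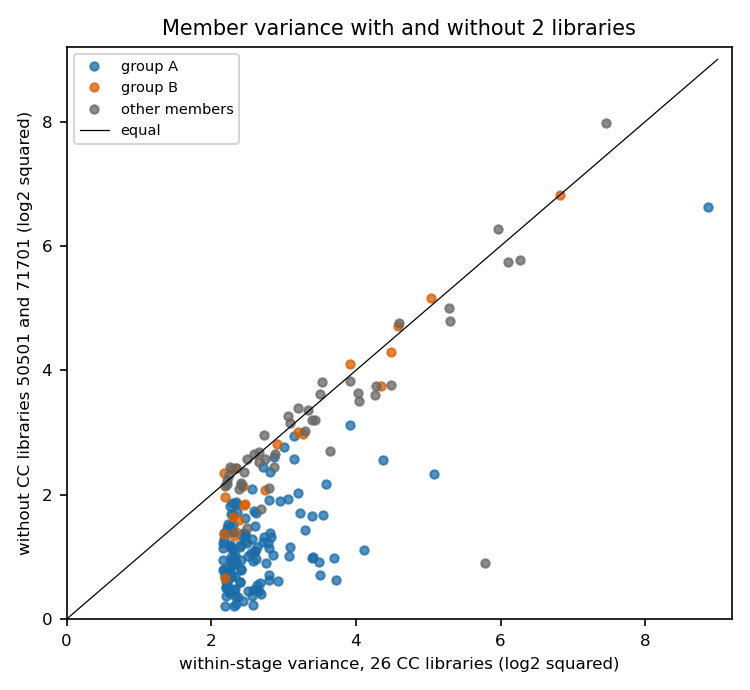
Each point is 1 of the 200 members, with the pooled within-stage variance over 26 CC libraries on the x axis and the same over 24 libraries, without follicles CS50501 and CS71701, on the y axis (both in squared log2 units). Points of group A (blue) lie mostly far below the line of equal values, with medians of 2.44 and 1.06, and those of group B (orange) and the others (grey) lie mostly nearer to it, apart from the member ranked 7, which fell from 5.78 to 0.90.

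A few members went the other way in the low libraries. In 6 members both CS50501 and CS71701 lay above all 6 other small follicles. The member ranked 7 stood at 5468 CPM in the CCs of CS50501 and 317 CPM in those of CS71701, against 0.653 to 9.27 CPM in the other small, 11.5 to 91.8 CPM in the medium and 0.574 to 14.0 CPM in the large follicles. It did not pass 0.123 CPM in any MGC library and ran from 0.237 to 116 CPM in oocytes. The member ranked 121, the most abundant of these 6, took 81442 and 36487 CPM in the 2 libraries and 6869 to 19105 CPM in the other small follicles. The other 4, ranked 50, 82, 93 and 105, were also members of neither group.

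Group B varied from follicle to follicle in every class. Its members had a median of 58.5 CPM in the CCs of small follicle CS50502 and 11.7 to 21.7 CPM in the other 5 small follicles outside CS50501 and CS71701. In the medium class the median was 152 CPM in CM71704 and 142 CPM in CM70502, but 5.87 CPM in CM62201. Among large follicles it was 140 CPM in CL50505 and 10.3 CPM in CL70503. The group was therefore high in 4 follicles (CS50502, CM71704, CM70502 and CL50505) and low in CM62201 and CL70503 as well as in the 2 low libraries.

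In MGCs the same 23 genes also varied, though not always in the same follicles. Their mean difference from the stage mean in MGCs was 1.99 in CS50502, 1.87 in CM70502 and 1.23 in CM71704, all of them high in CCs too, and -2.36 in CM62201, which was low in CCs at -2.70. It was -1.10 in the MGCs of CL50505, where CCs stood at 1.54, and 2.15 in the MGCs of CL71802, where CCs stood at 0.63. Over 26 follicles the group mean of CCs correlated with that of MGCs at r = 0.38, and at 0.41 without the 2 low libraries. With oocytes r was 0.28 and -0.01.

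The members closest to the mean of group B were those ranked 45, 14, 43 and 136. The member ranked 45 ran from 2.31 to 168 CPM in the CCs of small, from 6.20 to 981 in those of medium and from 32.4 to 586 in those of large follicles. Its MGC levels spanned 21.4 to 1671 CPM, and its oocyte levels 1.75 to 40.2 CPM. The member ranked 11, the most abundant of the group in CCs, reached 4477 CPM in CM71704 and 2894 CPM in CS50502 and stood at 6.53 CPM in CM62201. In MGCs it ran from 242 to 5835 CPM. The member ranked 3 spanned 0.141 to 264 CPM in CCs and 3.62 to 6121 CPM in MGCs, and its oocyte levels did not pass 5.603 CPM.

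Outside both groups, some members had levels that the cells of a follicle shared. The 4 with identifiers were picked with their values known, for agreement between CCs and matched cells. ENSBTAG00000040367 (rank 2) stood at 100.2 to 227 CPM in the CCs of 5 follicles (small CS70501, medium CM71002 and CM72404, large CL72102 and CL70504) and at 0.114 to 3.14 CPM in the other 21. In the MGCs of those 5 follicles it stood at 76.3 to 159 CPM, and at 0.439 to 3.93 CPM in the other 21. In their oocytes it stood at 23.6 to 48.3 CPM, against 0 to 2.17 CPM. The gene thus split the 26 follicles the same way in all 3 cell types, with no overlap, and all 3 size classes held both high and low follicles. Follicles CM70502 and CL70503, whose identifiers share the first 3 digits with CS70501 and CL70504, were on the low side.

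ENSBTAG00000039664 (rank 4) split the follicles in CCs and MGCs. It stood at 11.6 to 89.6 CPM in the CCs of 15 follicles and at 0.177 to 1.07 CPM in the other 11. The MGCs of the 15 held 4.05 to 32.1 CPM and those of the 11 held at most 0.266 CPM. Oocytes held at most 1.75 CPM in any follicle, so no split could be read there. Small follicles CS62003, CS62004 and CS62005 were all on the high side, at 72.6 to 89.6 CPM in CCs.

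ENSBTAG00000003989 (rank 93) was at or near 0 in the CCs and MGCs of 2 follicles. It had 0 counts in the CCs of small follicle CS50506 and of large follicle CL70703 and 19.1 to 72.9 CPM in the other 24, among them CS50501 and CS71701. The MGCs of CS50506 held 0.143 CPM and those of CL70703 held 0.055 CPM, against 6.61 to 75.4 CPM in the other 24. Their oocytes held 0.340 and 0.118 CPM, within the range of 0 to 8.36 CPM of the others.

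ENSBTAG00000006383 (rank 73) was graded in CCs and split in MGCs. It stood at 302 to 704 CPM in the MGCs of 9 follicles (CS50506, CS71701, CM70502, CM72404, CL71802, CL72102, CL62802, CL62803 and CL71801) and at 12.9 to 91.9 CPM in the other 17. The oocytes of the 9 held 14.37 to 21.5 CPM and those of the 17 held 1.62 to 13.98 CPM. These oocyte ranges did not overlap but nearly touched, so no clear split could be read there. The CCs of the 9 held 87.4 to 426 CPM and those of the 17 held 11.5 to 119 CPM, with some overlap. The follicles of all 3 size classes were found on both sides.

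**Figure D4:**
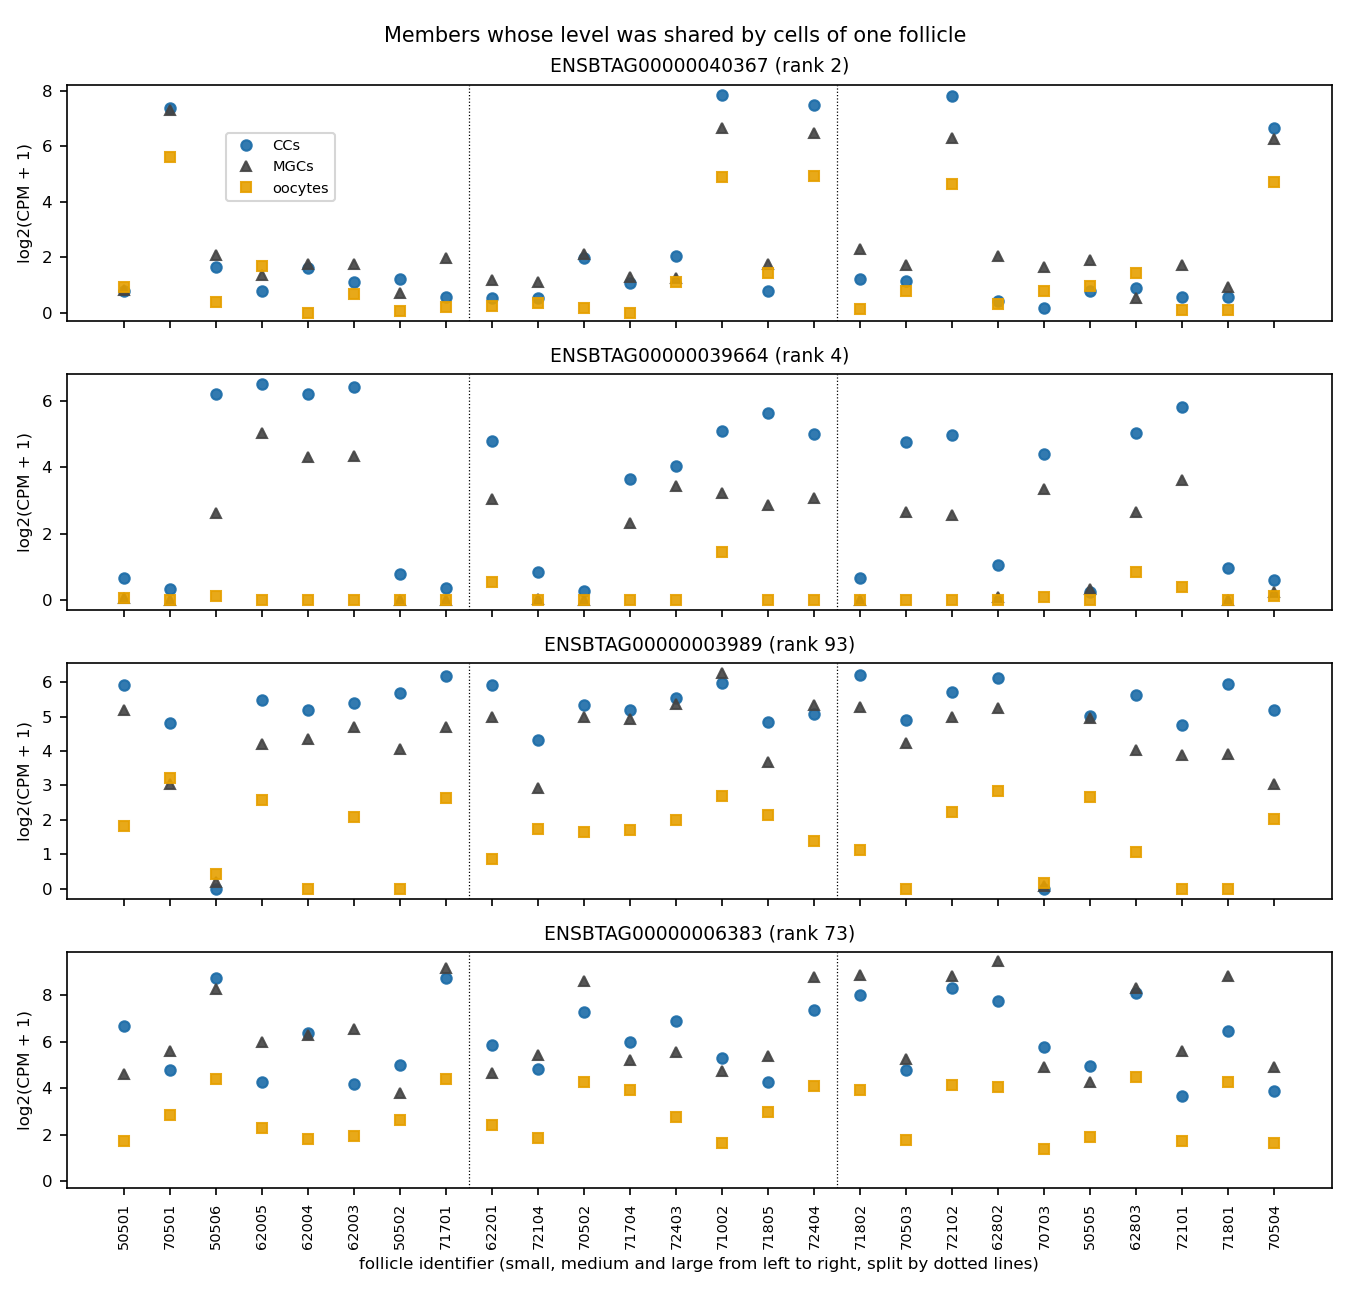
log2(CPM + 1) of 4 members in CCs (circles), MGCs (triangles) and oocytes (squares) of each of 26 follicles, in the order of size class. The gene ranked 2 is high in all 3 cell types of the same 5 follicles, the gene ranked 4 is near 0 in CCs and MGCs of the same 11, and the gene ranked 93 is near 0 in both of CS50506 and CL70703. The gene ranked 73 is high in the MGCs of 9 follicles, whose oocytes lie above the other 17 by a narrow margin (14.37 against 13.98 CPM).

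Of the other members of highest variance, some were low in MGCs and oocytes alike. The member ranked 1, which belonged to group A, had 0 counts in the CCs of small follicles CS50501, CS50502 and CS71701 and 0.108 CPM in medium follicle CM71002. It reached 672 CPM in small CS50506, 534 CPM in medium CM72404 and 771 CPM in large CL71801, with class medians of 166, 81.3 and 242 CPM. Its MGC level did not pass 4.69 CPM and its oocyte level did not pass 1.42 CPM, and its r between CCs and MGCs was 0.65 over 26 follicles and 0.54 without CS50501 and CS71701. The member ranked 8 stood at 302 CPM in the CCs of CS50501 and at most 87.3 CPM elsewhere, and lay under 0.32 CPM in all MGC libraries.

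The members ranked 5 and 6 also tracked the MGC level. The member ranked 5 had 0 counts in the CCs of 6 follicles and up to 79.1 CPM in CS62004, and ran from 0.817 to 25.2 CPM in MGCs (r = 0.74). The member ranked 6 ran from 0 to 197 CPM in CCs and from 2.34 to 179 CPM in MGCs (r = 0.64). For the member ranked 9, which spanned 0 to 457 CPM in CCs and 0.746 to 1963 CPM in MGCs, r was 0.42. The member ranked 12 was at most 77.2 CPM in CCs apart from 540 CPM in medium follicle CM70502, and oocytes held at most 0.170 CPM. The member ranked 10 belonged to group A, with 0.317 CPM in CS50501, 0.393 CPM in CS71701 and class medians of 128, 132 and 138 CPM.

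Over all members, agreement of the CC level with the matched MGC level was weak at the median. The median r, across 26 follicles with stage means removed, was 0.04 for the members and 0.00 for all 6135 genes above the floor. With oocytes the medians were 0.20 and 0.17, and without CS50501 and CS71701 they were 0.13 and 0.16. An r above 0.6 with MGCs was found for 8 members (4%), ranked 1, 2, 4, 5, 6, 54, 73 and 93, and for 47 (0.766%) of all genes above the floor. An r above 0.6 with oocytes was found for 10 members (5%) and 173 (2.82%) of all. Without CS50501 and CS71701 the counts were 11 members (5.5%) and 110 of all (1.79%) with MGCs, and 6 members (3%) and 108 of all (1.76%) with oocytes. Of the 8 listed for MGCs, the member ranked 1 was then under 0.6. The CC and oocyte libraries share an amplification method as well as a follicle.

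**Figure D5:**
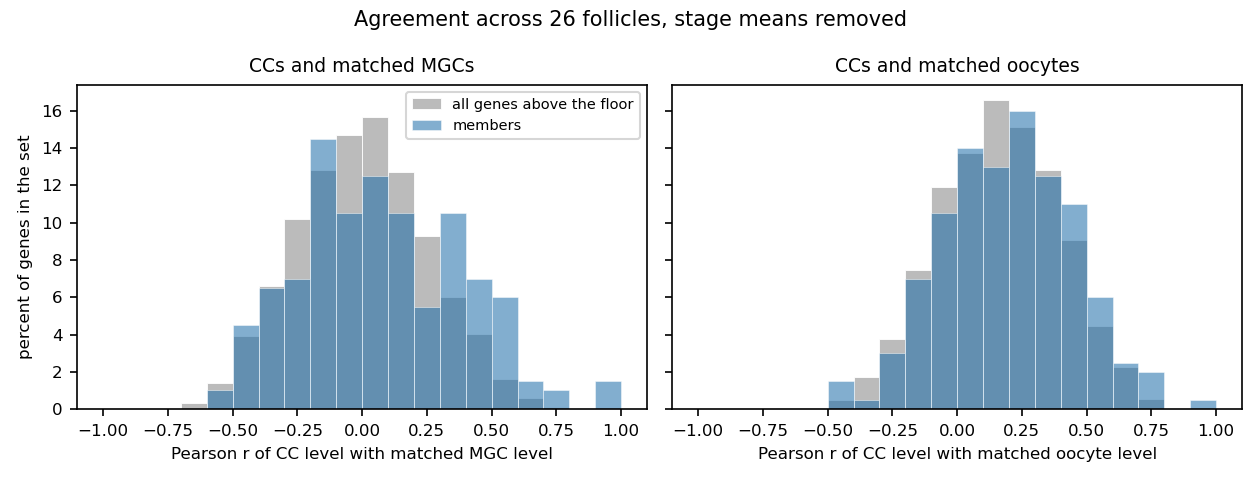
Percent of genes by the Pearson r between the CC level and the level in matched MGCs (left) or oocytes (right) over 26 follicles, after removal of the stage means. Blue bars are the 200 members and grey bars the 6135 genes above the floor. The median r was 0.04 against 0.00 with MGCs and 0.20 against 0.17 with oocytes, and the blue bars above 0.6 with MGCs are 8 members.

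By group the values were as follows. The median r with MGCs was -0.07 in group A, 0.32 in group B and 0.40 in the other members. With oocytes it was 0.21, 0.08 and 0.11. Of the 10 members with r above 0.6 to oocytes, 6 belonged to group A, which holds 131 of the 200 members. These 6 were ranked 26, 27, 30, 51, 103 and 168. Without CS50501 and CS71701 only the member ranked 27 of these kept an r above 0.6, at 0.64. The other 4, ranked 2, 25, 39 and 73, stood at 0.61 to 0.94 over 26 follicles and at 0.66 to 0.95 over 24. For the member ranked 39 this rests on levels near 0. Its oocyte level was 0 CPM in all small follicles and at most 2.345 CPM in the others.

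The spread of the members in MGCs and oocytes was measured in libraries the choice did not use. Of the 153 members with a mean MGC level of at least 20 CPM, 50 (32.7%) lay in the top 10% of within-stage variance among the MGC genes above that floor. Of all CC genes above the floor that were measured there, 6.29% did. Group A accounted for 11 of 103, group B for 15 of 18 and the other members for 24 of 32. Of the 74 members above the floor in oocytes, 15 (20.3%) lay in the top 10% there, against 8.10%. These were 12 of 57 in group A, 0 of 7 in group B and 3 of 10 other members.

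Ranking MGC genes in the same way gave a list of 200 that shared 16 genes with the members. These were 8% of the members and 17.0% of the 94 listed MGC genes that were above the floor in CCs. The oocyte list shared 4, which were 2% of the members and 4.21% of 95. The members are 3.26% of all CC genes above the floor. The variance itself was not tested between cell types.

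The levels of the members in matched cells ranged from far above to far below those of CCs. The floor on the mean CC level was part of the choice, so a CC excess over another cell type is in part given by it. The median mean level was 53.2 CPM in MGCs and 10.8 CPM in oocytes, against 51.1 and 47.2 CPM for all genes above the floor. In oocytes 44 members had a mean under 1 CPM, and in MGCs 7.

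Between CCs and matched oocytes, 163 of 200 members (81.5%) passed the edgeR quasi-likelihood test at an adjusted p under 0.05 and a fold change over 2, against 70.8% of all 15055 genes tested. All 200 passed the filter on low values, as they also did in the fits below. Of the 163, 155 were higher in CCs and 8 in oocytes, against 5489 and 5171 of all genes tested. With the follicle as a replicate block 160 passed, 146 higher in CCs and 14 in oocytes, against 71.7% of all genes. The fold changes, SEs and p-values of named members between cell types are from the fit without the block. That fit does not use the pairing of libraries within a follicle. The member ranked 166 held 2.13 to 238 CPM in CCs and 202 to 2501 CPM in oocytes, the largest oocyte excess called (log2 fold change of CCs over oocytes -3.55 ± 0.29, SE, adjusted p = 1.43e-16). It was followed by those ranked 78, 61, 108 and 200, with log2 fold changes of -2.87 to -1.95. At the other end, the members ranked 33, 180, 96, 12 and 191 reached 98.1 to 540 CPM in CCs and at most 1.12 CPM in any oocyte.

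Between CCs and matched MGCs, 103 of 200 members (51.5%) passed the same test, near the 50.7% of all 15043 genes tested. CCs were higher at 70 and MGCs at 33, against 3546 and 4083 of all genes. With the follicle as a replicate block the members stood at 61 and 46 and all genes at 3174 and 4508, and 51.1% of all genes passed. MGCs and CCs were sequenced by different methods, so cell type and method cannot be told apart here. In the fit without the block, 10 of the 23 members of group B were called higher in MGCs and 2 in CCs. In group A 13 of 131 were called higher in MGCs and 46 in CCs. The groups were not counted in the fit with the block. Scaling by DESeq2's size factors moved the median log2 fold change of all genes from -0.04 to -0.19 in this comparison and from 0.10 to 0.23 against oocytes.

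The largest excess of MGCs among the members was at rank 46, with 1.02 to 387 CPM in CCs and 92.0 to 5070 CPM in MGCs (log2 fold change -5.03 ± 0.51, SE, adjusted p = 9.72e-13). The members ranked 3, 135 and 24 of group B and the member ranked 9 followed, at -4.12 to -3.00. Of these, the member ranked 24 kept the call in 4 of 5 alternatives and the others in all 5. In large follicles its median was 16.3 CPM in CCs and 3.11 CPM in MGCs, the other way round. In the other direction, the members ranked 16 and 29 were abundant in CCs, with medians of 754 and 791 CPM in small follicles, and reached at most 21.5 and 29.7 CPM in MGCs. The member ranked 177 held 0.507 to 196 CPM in CCs and at most 0.058 CPM in MGCs.

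Between size classes, few members changed in CCs. Comparing small with medium follicles, 0 of 200 members passed the edgeR quasi-likelihood test, as did 0.0% of all 15033 genes. At an unadjusted p under 0.05 and a fold change over 2 there were 25 members and 1368 of all genes. DESeq2 called 2 members (0.253% of all genes). Comparing medium with large follicles, 0 passed (0.0% of all genes). At the same unadjusted limits there were 12 members and 674 of all genes. DESeq2 called 1 member (0.12% of all genes), and edgeR called 1 without CS50501 and CS71701 (0.02%). Since the members were chosen for their spread in these libraries, the standard errors here are large by choice.

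From small to large follicles 9 members (4.5%) passed in CCs, 7 upward and 2 downward, against 3.3% of all genes tested. The members ranked 128, 191, 149, 122 and 60 rose with the lowest adjusted p. The member ranked 128 ran from 1.11 to 26.8 CPM in small and from 13.6 to 500 CPM in large follicles, with medians of 11.3 and 38.0 CPM, and rose by 3.32 ± 0.72 on the log2 scale (SE, adjusted p = 0.0314). The member ranked 7 fell by 8.37 on the log2 scale (SE 1.49, adjusted p = 0.0283), and the member ranked 19 by 3.30 (SE 0.95, adjusted p = 0.0490).

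These calls were lost when any of 5 single libraries was left out. Without CS50501 and CS71701 there were 21 members and 1102 of all genes at an unadjusted p under 0.05 and a fold change over 2. The log2 fold change of the member ranked 7 became 0.27 (adjusted p = 0.897). None of the 9 passed by edgeR (0.0% of all genes). The count was also 0, as it was over all genes, when CS50501, CS71701, CL62802, CL62803 or CL71801 alone was left out. It was 1 without CL70703 (15 of all genes) and 2 without CL70504 (32 of all genes). DESeq2 called 22 members (11%) and 9.03% of all genes. Adding a covariate for the leading 3 digits of the identifier, whose meaning the labels do not give, also left 0 (0.0399% of all genes). There were then 47 members and 1682 of all genes at an unadjusted p under 0.05 and a fold change over 2.

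In MGCs, whose libraries were not used to choose the members, 3 members (1.5%) fell from small to medium follicles, against 0.283% of all 14838 genes tested. From medium to large follicles 0 passed (0.0% of all genes) by edgeR. At an unadjusted p under 0.05 and a fold change over 2 there were 15 members and 658 of all genes. DESeq2 called 1 (0.425%), and it called 8 from small to medium follicles (1.52%). From small to large follicles 15 members (7.5%) passed, 5 upward and 10 downward, against 3.13%. Without CS50501 and CS71701 the first and last counts were 3 and 12, against 0.196% and 2.11% of all genes. With the identifier digits as a covariate the first count was 1 (0.236% of all genes), and the last was 29 (14.5%), 18 of them upward, against 8.05% of all genes.

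The members that fell in MGCs with the lowest adjusted p were those ranked 157, 162, 29, 78 and 41. The member ranked 157 ran from 4.84 to 405 CPM in the MGCs of small, from 2.39 to 15.4 CPM in those of medium and from 0.686 to 5.42 CPM in those of large follicles. From small to large it fell by 4.63 on the log2 scale (SE 0.65, adjusted p = 1.28e-04), and still fell without CS50501 and CS71701, at -3.81 (adjusted p = 1.05e-04). Its CC medians were 67.9, 64.98 and 75.4 CPM in the 3 classes. The member ranked 162 had MGC medians of 52.5, 8.05 and 5.57 CPM and fell by 3.75 on the log2 scale (SE 0.52, adjusted p = 1.28e-04), without overlap between small and large follicles. Those ranked 29, 78 and 41 stood at -2.82, -4.11 and -1.36. The member ranked 78 was low in MGCs, with medians of 2.9, 2.8 and 0.82 CPM. Its highest MGC level was 75.8 CPM, in a small follicle.

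The 5 members that rose in MGCs from small to large follicles were those ranked 27, 12, 66, 46 and 75. The member ranked 27 ran from 26.7 to 78.6 CPM in small and from 43.1 to 826 CPM in large follicles, and rose by 2.35 ± 0.59 on the log2 scale (SE, adjusted p = 0.0185). The member ranked 75 had MGC medians of 159, 1571 and 3878 CPM, the highest level of any of these 5, and rose by 4.73 ± 1.40 (SE, adjusted p = 0.0494). Without CS50501 and CS71701, of these 5 only the member ranked 12 passed (adjusted p = 0.0372), and the others stood at adjusted p values of 0.0585 to 0.0988. With the identifier digits as a covariate the log2 fold change went from 2.10 to 0.29 at rank 12 and from 2.05 to 0.22 at rank 66, neither of which passed, and from 1.85 to -0.28 at rank 46.

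In oocytes 9 members (4.5%) passed from small to medium follicles, 8 upward and 1 downward, against 0.815% of all 14855 genes tested. From medium to large follicles 0 passed (0.0% of all genes) by edgeR, and 0 by DESeq2. At an unadjusted p under 0.05 and a fold change over 2 there were 10 members and 359 of all genes. From small to large follicles 14 (7.0%) passed, 11 upward and 3 downward, against 3.14%. Without CS50501 and CS71701 the counts were 1 and 6, against 0.296% and 1.54% of all genes. With the identifier digits as a covariate they were 1 and 0, against 0.121% and 0.0269%. At the same unadjusted limits there were then 22 members in each, and 1408 and 1002 of all genes. The median log2 fold change of the members from small to large was 0.44 without the covariate and 0.53 with it. Some of these digits occur in 1 size class only, so the lost calls cannot tell digits and class apart.

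Of the 11 members that rose in oocytes from small to large follicles, 9 belonged to group A, which holds 131 of the 200 members. The member ranked 88 had oocyte medians of 15.9, 71.0 and 92.8 CPM, with 2.203 to 65.8 CPM in small and 26.2 to 240 CPM in large follicles. It rose by 2.36 ± 0.43 on the log2 scale (SE, adjusted p = 8.92e-04), and by 2.14 without CS50501 and CS71701 (adjusted p = 0.0083). The member ranked 197 ran from 11.4 to 44.0 CPM in small and from 44.1 to 123 CPM in large follicles, without overlap, and rose by 1.49 ± 0.27 (SE, adjusted p = 0.00103). Those ranked 186, 87 and 148 rose too, at 1.69, 1.16 and 2.51. With the identifier digits as a covariate in edgeR, none of the members ranked 88, 197, 186, 87 and 148 passed (adjusted p values of 0.146 to 0.624). The 3 that fell, ranked 121, 105 and 113, were members of neither group, with log2 fold changes of -1.54, -1.44 and -1.39.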

How the data were processed

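The authors deposited a table of raw counts per gene for MGCs, CCs and oocytes of single bovine follicles, with 90 libraries from 30 follicles. Per the paper's methods, reads were aligned to ARS-UCD1.2 with STAR, keeping reads that mapped once, and counted over exons with featureCounts without molecular identifiers, whereas the submitters' processing notes name HISAT2 (version 2.2.1), so the aligner is not settled. Unique mapping lowers the counts of genes with near-identical copies. CC and oocyte cDNA was amplified and MGC RNA was not.

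The deposited counts were scaled to CPM by the library total, and 78 libraries of 26 follicles were used. The 4 follicles left out are those named in the rule for choosing members (CS70702, CM71804, CM71001 and CS70701). Groups came from the labels. The members, groups of interest and tests were chosen with earlier results of these data known. All columns matched a sample.

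Tests used edgeR 4.0.16 (quasi-likelihood, TMM, R 4.3.3) over all genes with more than 1 CPM in at least 15 of the 26 libraries of any cell type. A call needed a Benjamini-Hochberg adjusted p under 0.05 and a fold change over 2, and the SE is the log2 fold change over the square root of F. Stage fits held the 26 libraries of a cell type, and cell type fits held stage as a covariate. Alternatives were DESeq2 1.42.0, its size factors, other filters, a covariate for the leading 3 digits of the identifier, left-out libraries and, for cell types, the follicle as a block. Follicle numbers pair the cells because the labels give the same identifier to the 3 libraries of a follicle; within follicles, deviations from the stage means over 6135 genes correlated at a median r of 0.08 between CCs and MGCs (-0.19 to 0.45) and 0.14 between CCs and oocytes (-0.10 to 0.42).

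The genes described were fixed by rule as the 12 highest variances, the 4 closest to each group mean, the 5 largest and smallest called differences between cell types and up to 5 called genes in each direction of each stage comparison. Those with r above 0.6, the 6 members high in 2 libraries and the 4 identifiers were added after the values were seen. Scripts were tested on simulated data. Gene symbols, marker lists and sequences were not used here. Python 3.11.15 (numpy 2.4.6, pandas 2.3.3, scipy 1.17.1, matplotlib 3.10.9) was used for the rest.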

Additional observations from a re-analysis of the deposited data

Results flagged for a closer look

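Library values of the groups, of library quality and of the 4 genes with identifiers were compared within each size class by the gap of the most extreme library to its nearest neighbor, as a share of the range (Dixon's limits at the 95% level). Of 54 groups of values 12 were flagged. Chance flags about 1 in 20, a rate that does not apply to the 10 flags of genes picked with their values known.

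ENSBTAG00000040367 was flagged in small follicle CS70501 in all 3 cell types, at a log2(CPM + 1) of 7.40 in CCs (other small follicles 0.56 to 1.63), 7.32 in MGCs (0.72 to 2.06) and 5.62 in the oocyte (0 to 1.67). In the medium and large classes 2 follicles were high in each, so that no single library stood out.

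ENSBTAG00000003989 was flagged as low in small follicle CS50506, at 0.0 in CCs (others 4.81 to 6.19) and 0.19 in MGCs (3.03 to 5.19), and in large follicle CL70703, at 0.0 in CCs (4.77 to 6.21) and 0.0772 in MGCs (3.04 to 5.27).

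ENSBTAG00000039664 was flagged in oocytes at levels near 0. Its log2(CPM + 1) was 0.13 in small follicle CS50506, 1.46 in medium follicle CM71002 and 0.85 in large follicle CL62803, against at most 0.05, 0.53 and 0.40 in the others of each class. In CCs all 3 follicles were on the high side for this gene.

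The CC library of medium follicle CM72403 was flagged for its correlation with the mean of the other CC libraries, which was 0.916 against 0.955 to 0.980, and it was the lowest of its class at 49 members. The CC library of large follicle CL62803 was flagged for the number of genes detected, which was 18588 against 15094 to 16921.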

How the results depend on the processing

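Choosing the members again kept 172 of 200 with a pseudocount of 0.5, 168 with TMM library sizes and 153 with a floor of 10 CPM, but 130 with a pseudocount of 5, 112 with a floor of 50 CPM and 97 without follicles CS50501 and CS71701, a choice made after seeing the data. Leaving out 1 library kept 138 (without CS50501) to 195. By DESeq2 the members called were 2, 1 and 22 in CCs (small to medium, medium to large, small to large), against 0, 0 and 9, and 8 and 1 in MGCs for the first pair of comparisons, against 3 and 0. With the identifier digits as a covariate they were 0 in CCs from small to large, 1 and 29 in MGCs (small to medium, small to large) and 1 and 0 in oocytes (the same order). These digits are partly confounded with the size classes. With no filter 3 were called in oocytes from small to medium, and 108 of all 20551 genes. Without follicles CS50501 and CS71701 they were 1 in CCs from medium to large, 0 in CCs from small to large, and in oocytes 1 (small to medium) and 6 (small to large). Leaving out 1 CC library gave 0 to 12 calls from small to large and 0 in the other CC comparisons. The cause was not tested.

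With the follicle as a replicate block, 160 members were called between CCs and oocytes (163 without), with 146 higher in CCs and 14 in oocytes (155 and 8 without), and 107 between CCs and MGCs (103 without), with 61 higher in CCs and 46 in MGCs (70 and 33 without). The number higher in oocytes moved by more than 1.5 times and the others by less. Of 493 repeats over the genes described, 382 kept the call, 109 kept the direction and lost the call, and 2 reversed, namely the member ranked 7 in CCs from small to large without follicles CS50501 and CS71701 (0.27) and the member ranked 46 in MGCs with the identifier digits (-0.28). Median r to oocytes ran from 0.13 to 0.20 and to MGCs from 0.04 to 0.07 over the alternatives. Depth limits the values near 0, which cannot be told from levels of up to 3 counts. This bound covers counting error only, and loss in the amplification of the small CC pools was not measured.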

Other observations

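The 4 CC libraries that the choice of members left out were compared with the CC means of their class. In small follicle CS70702, with 13558016 counts and 23838 genes detected, the median member lay 1.10 above the class mean on the log2 scale, and 36 members lay above all 8 small libraries used. Group A lay 1.06 and group B 2.25 above the class mean there. In medium follicle CM71804 the median difference was 0.07, with 13 members above and 2 below all 8 medium libraries. In medium follicle CM71001 it was -0.18, with 11 above and 34 below. The library of small follicle CS70701, with 1666212 counts over 1066 genes, had counts for 3 of the 200 members.

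The libraries of follicles CS70702, CM71804 and CM71001 were then added, giving 29 CC libraries. From small to medium, medium to large and small to large, edgeR called 0, 0 and 6 members. Of all 15048 genes tested it called 0, 0 and 279. At an unadjusted p under 0.05 and a fold change over 2 there were 23, 15 and 41 members. Of all genes there were 1003, 637 and 1995.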
